A study of Danio rerio with 9 samples.

Results

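Genes that fold, modify and export collagen were followed in 3 sorted cell populations of the zebrafish notochord sheath. They were 48 genes chosen by name and ordered by the step they serve. Of these, 46 were matched to 47 gene identifiers among the 32266 in the count tables: 13 for hydroxylation, 4 for glycosylation, 13 for chaperones and their control, 11 for export and 6 for propeptide cutting. All 47 passed the filter on low counts and were tested among 19039 genes. The entry kdelr3 gave 2 identifiers, and tmem38b and tango1 were not matched (TANGO1 is also a name of mia3, which was). The name table gives many symbols in capitals, and it gives no paralog letter for the FKBP10, SERPINH1, COLGALT1 and BMP1 pairs, so those genes are named with their identifiers. P4HA1 and PLOD1 also stand there without a letter, and their names p4ha1b and plod1a come from the list of 48.

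Fish of strain EK, wild type per the labels and transgenic per the study's design text, were taken 13 days post fertilization. Cells of the notochord sheath, the epithelium that wraps the notochord's vacuolated inner cells, were sorted by fluorescence into col9a2+ cells, cells positive for both col9a2 and entpd5a (double-positive) and entpd5a+ cells. Each population had 3 RNA-seq libraries, made with an ultra-low-input kit; the labels name neither the reporter constructs nor whether replicates came from separate fish, and the p-values therefore measure only library-to-library spread, which may be technical. The gene col9a2 encodes a chain of collagen IX, a cartilage collagen, and entpd5a encodes an ectonucleotidase needed for bone mineralization in zebrafish.

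Collagen chains are made on the endoplasmic reticulum, where prolines and lysines are hydroxylated and some hydroxylysines receive sugars before 3 chains wind into a helix. The chaperone HSP47, made from SERPINH1 genes, binds the wound helix, and COPII-coated carriers take it to the Golgi with the help of TANGO1. Outside or near the cell surface, proteinases of the BMP1 and ADAMTS2 groups then cut off the propeptides so that fibrils can form. Notochord sheath cells and osteoblasts both secrete large amounts of collagen, of different types.

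Libraries held 39955994 to 81471212 counts on genes, and 17850 to 21996 genes had at least 1 count. The 47 genes together took 0.625% to 2.52% of the counts of a library. The libraries fall into 4 deeper ones (col9a2+ 3, double-positive 3, entpd5a+ 2 and 3) and 5 shallower ones. A list of 5 heat shock genes summed to 25680 to 35670 CPM (counts scaled to a common library size) in the deeper libraries and to 526.7 to 1861 CPM in the shallower ones. Of the genes named in the sort, COL9A2 stood at 7738, 11560 and 9398 CPM in col9a2+ libraries. It stood at 811.1, 1580 and 1426 CPM in double-positive and at 429.1, 73.06 and 64.74 CPM in entpd5a+ libraries. ENTPD5, the symbol of entpd5a in the name table, stood at 253.1, 452.2 and 128.9 CPM in col9a2+ libraries. It stood at 10370, 18680 and 13080 CPM in double-positive and at 5678, 3955 and 3142 CPM in entpd5a+ libraries. All 6 osteoblast markers above the filter were higher in entpd5a+ than in col9a2+ cells; their list summed to 4051 to 4638 CPM in entpd5a+, 188.5 to 962.3 in double-positive and 49.25 to 209.7 in col9a2+ libraries. Of 7 notochord markers, krt8, krt18a.1 and col8a1a were called higher in double-positive than in col9a2+ cells. Both SHH genes were low in entpd5a+ cells: SHH (ENSDARG00000038867) stood at 12.06 to 34.59 CPM there, against 185.9 to 376.7 in col9a2+ and 423 to 861.9 in double-positive libraries, and SHH (ENSDARG00000068567) at 56.72 to 128.1 CPM, against 653.3 to 989.6 and 1101 to 1546. They were called lower in entpd5a+ cells in both comparisons, krt18a.1 was called higher than in col9a2+ cells, and tbxta (115.4 to 804.7 CPM in entpd5a+, 926.2 to 4465 in the other libraries) did not pass. The entpd5a+ cells, labelled as notochord sheath, thus held lower levels of the SHH genes and tbxta, though none was at 0. Against col9a2+ cells the list was mixed: 3 of 7 differences were positive, the median was -0.35, and 1 was called higher and 2 lower. Against double-positive cells 0 of 7 were positive, with a median of -2.83. Of the 3 positive against col9a2+ cells, krt8 stood at 1271, 1306 and 1868 CPM in entpd5a+ and at 1165, 1060 and 923 CPM in col9a2+ libraries. For krt18a.1, a large part of the sums below, the values were 4348, 4862 and 9560 CPM against 1537, 1514 and 1446 CPM. The 7 markers summed to 6790 to 13920 CPM in entpd5a+, 5161 to 6772 in col9a2+ and 27020 to 42400 in double-positive libraries. Endothelial markers summed to 223.3 CPM in double-positive library 1 and to 1.717 to 69.52 elsewhere.

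Among the 47 genes, 9 differed between the populations, spread over 4 of the 5 steps. They were the prolyl hydroxylase genes p4ha1b and p3h2, the galactosyltransferase genes colgalt2a and colgalt2b, the HSP47 gene SERPINH1 (ENSDARG00000075954), the transcription factor gene creb3l1, the proteinase gene BMP1 (ENSDARG00000028071) and the enhancer genes pcolcea and pcolceb. No export gene was among them. Differences are log2 ratios from edgeR's quasi-likelihood test with their standard error (SE), and a gene is called different at an adjusted p under 0.05, with Benjamini-Hochberg adjustment over all 19039 genes.

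In the test over all 3 populations, 9 of 47 genes were called (19.1%), against 9.41% of all genes tested. Between entpd5a+ and col9a2+ cells, 4 were called (8.51%), 1 higher and 3 lower, where 5.02% of all genes were called, 2.68% higher and 2.34% lower. Between double-positive and col9a2+ cells, 3 were called (6.38%), 1 higher and 2 lower, against 3.54% of all genes, 1.68% higher and 1.86% lower. Between entpd5a+ and double-positive cells, 6 were called (12.8%), 4 higher and 2 lower, against 6.51% of all genes, 3.06% higher and 3.45% lower. Each share rests on a handful of genes.

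Most of the 47 genes stood lower in double-positive than in col9a2+ cells. Only 6 of 47 log2 differences between double-positive and col9a2+ cells were positive (5 among shallower and 14 among deeper libraries), with a median of -0.52 where the median of all genes was 0.01. Between entpd5a+ and double-positive cells 32 were positive, with a median of 0.44 (0.07 over all genes), and between entpd5a+ and col9a2+ cells 22 were, with a median of -0.05 (0.02 over all genes). The population with the highest mean was double-positive for 4 of the 47 genes (8.51%), whereas it was double-positive for 32.5% of all genes tested. It was col9a2+ for 23 genes (48.9%, against 31.2% of all genes) and entpd5a+ for 20 (42.6%, against 36.3%). These 3 comparisons share libraries and are not independent of each other.

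Groups of 3 libraries did not overlap at all for 14 genes between entpd5a+ and col9a2+ cells, 6 higher and 8 lower, where 24.7% of all genes had no overlap. The count was 15 between double-positive and col9a2+ cells, 2 higher and 13 lower (24.4% of all genes), and 21 between entpd5a+ and double-positive cells, 14 higher and 7 lower (26.1% of all genes). Bulk libraries cannot tell apart fewer cells of a type and less RNA per cell.

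**Figure D1:**
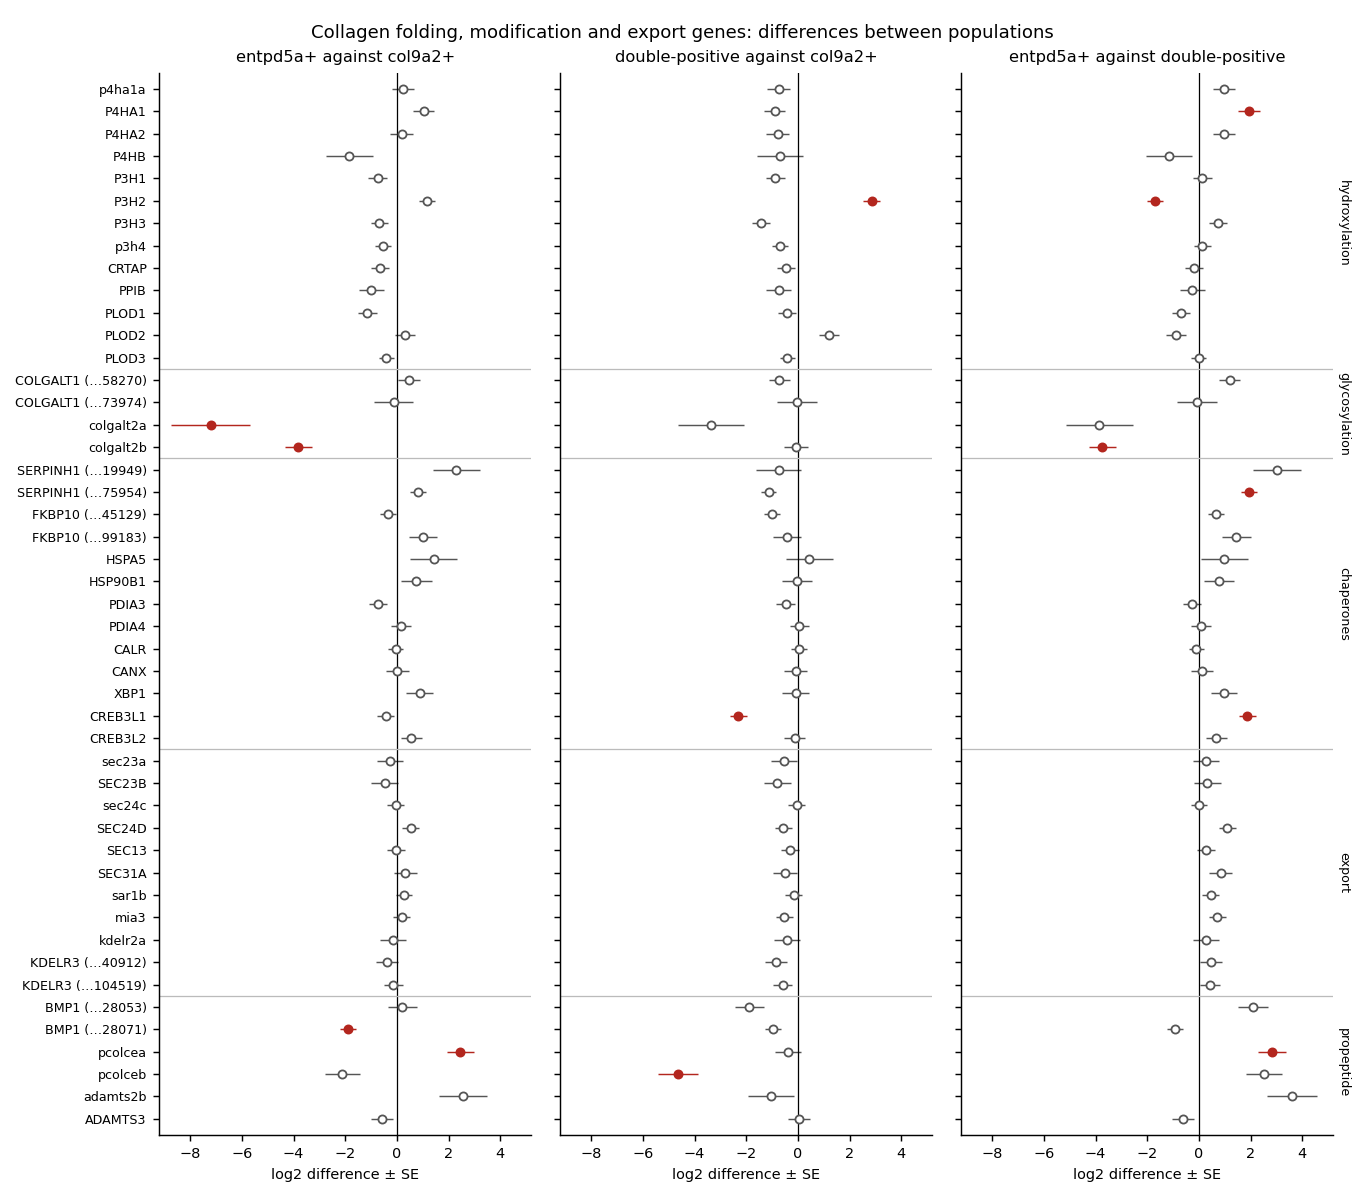
Log2 difference (horizontal axis) of each of the 47 genes, by step, in 3 comparisons; points are estimates, bars are ± 1 SE and filled red points are the 13 called differences. Numbers in brackets are the last digits of the identifier. The 11 export genes lie between -0.85 and 1.09 over the 3 panels, all below 0 for double-positive against col9a2+ cells. Glycosylation and propeptide genes reach from -7.22 to 3.62.

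Among the 13 hydroxylation genes, p3h2 and p4ha1b differed between populations, and no other passed the test. The gene p3h2 encodes a prolyl 3-hydroxylase. It stood at 65.52, 51.02 and 73.56 CPM in double-positive libraries 1 to 3, at 9.293, 7.649 and 9.222 CPM in col9a2+ libraries and at 13.53, 21.6 and 23.04 CPM in entpd5a+ libraries. Every double-positive library lay above all other 6, and every entpd5a+ library above the col9a2+ libraries. Double-positive cells exceeded col9a2+ cells by 2.86 ± 0.33 (7.26-fold, adjusted p = 0.00338), and entpd5a+ cells fell by 1.71 ± 0.31 relative to double-positive cells (3.27-fold, adjusted p = 0.0125). The step from col9a2+ to entpd5a+ cells, 1.15 ± 0.31, did not pass (adjusted p = 0.0671). Of the whole set, p3h2 was the only gene called higher in double-positive than in col9a2+ cells.

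The gene p4ha1b (ENSDARG00000071082) encodes a catalytic subunit of prolyl 4-hydroxylase, the enzyme whose product stabilizes the helix. It stood at 185.3, 214.5 and 171.9 CPM in entpd5a+ libraries, at 105.8, 99.84 and 72.76 CPM in col9a2+ libraries and at 82.59, 29.45 and 37.14 CPM in double-positive libraries. All entpd5a+ libraries lay above the other 6, and double-positive library 1 lay inside the col9a2+ range. The difference of entpd5a+ from double-positive cells was 1.94 ± 0.41 (3.83-fold, adjusted p = 0.0228). It was no longer called without double-positive library 2 or 3 or entpd5a+ library 2, or in a fit of the 6 libraries compared (1.91, adjusted p = 0.0671).

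Its paralog p4ha1a stood at 53.17, 65.33 and 40.44 CPM in entpd5a+, at 26.55, 61.86 and 47.46 CPM in col9a2+ and at 14.47, 29.06 and 36.97 CPM in double-positive libraries. These groups overlapped between entpd5a+ and col9a2+ cells, and no difference passed (entpd5a+ against double-positive 0.98 ± 0.43, adjusted p = 0.229). Another catalytic subunit gene, p4ha2, ranged from 81.14 to 317.8 CPM and was not called.

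Of the hydroxylation genes, ppib and plod2 gathered the most counts. The gene plod2 encodes a lysyl hydroxylase that acts on the ends of the chains, outside the helix. It stood at 647.9, 875.5 and 1116 CPM in double-positive libraries, above all col9a2+ libraries (273.3, 428.2 and 443.8 CPM) and all entpd5a+ libraries (354.8, 566.4 and 500 CPM). The groups did not overlap, yet the differences of 1.2 ± 0.39 from col9a2+ cells (adjusted p = 0.144) and of -0.89 ± 0.39 for entpd5a+ against double-positive cells (adjusted p = 0.23) did not pass. With a term for the depth groups in the fit both passed, at adjusted p = 0.028 and 0.0402. The other lysyl hydroxylase genes were ordered differently: plod1a had its highest mean in col9a2+ cells (232.3 ± 60.4 CPM, SD, n = 3) and its lowest in entpd5a+ cells (104.8 ± 33.9), and plod3 ranged from 169.9 to 269 CPM over all libraries, and neither was called.

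The gene ppib encodes cyclophilin B, a prolyl isomerase that works in a complex with P3H1 and CRTAP. It stood at 1248, 1262 and 581.3 CPM in col9a2+, at 783, 704.8 and 360.4 CPM in double-positive and at 756.9, 442.1 and 360 CPM in entpd5a+ libraries. In each population the deeper libraries were the low ones. The partner gene p3h1 ranged from 48.41 to 149.3 CPM and crtap from 98.01 to 251.6 CPM, each with its highest mean in col9a2+ cells, and none of these 3 was called between populations. The remaining prolyl 3-hydroxylase family genes were p3h3 (11.62 to 59.06 CPM) and p3h4 (22.59 to 61.02 CPM). For p3h3 the difference of double-positive from col9a2+ cells, -1.43 ± 0.34, did not pass (adjusted p = 0.0513).

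The largest called difference of the set, that of colgalt2a, was in glycosylation. The enzymes COLGALT1 and COLGALT2 place galactose on hydroxylysine, and zebrafish has a pair of genes for each. The gene colgalt2a (ENSDARG00000078299) stood at 138.8, 291 and 317 CPM in col9a2+ libraries, at 14.74, 22.79 and 34.92 CPM in double-positive libraries and at 4.482, 0.5897 and 0 CPM in entpd5a+ libraries. These last values rest on 199, 51 and 0 counts. The 3 populations did not overlap and formed a descending order. From col9a2+ to entpd5a+ cells colgalt2a fell by 7.22 ± 1.53 (adjusted p = 0.0263). The size depended on single libraries, and colgalt2a fell by 9.67 without entpd5a+ library 1. COL9A2 was also highest in that entpd5a+ library, at 429.1 CPM against 73.06 and 64.74 in entpd5a+ libraries 2 and 3. The colgalt2a call was lost without any 1 of the col9a2+ libraries, without entpd5a+ library 2 and with no count filter (adjusted p = 0.0517 to 0.109). The neighbouring steps in this order did not pass, with -3.37 ± 1.27 for double-positive against col9a2+ (adjusted p = 0.214) and -3.85 ± 1.31 for entpd5a+ against double-positive cells (adjusted p = 0.125). The first passed in DESeq2 (adjusted p = 0.0311), in the 6 libraries compared (adjusted p = 0.00977), without entpd5a+ library 3 (adjusted p = 0.0372) and in the 5 shallower libraries (adjusted p = 0.0171), at -3.55 to -3.40. The second passed in DESeq2 and, at -6.31, without entpd5a+ library 1.

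Its paralog colgalt2b stood at 61.56, 98.25 and 120 CPM in col9a2+ libraries and at 34.45, 98.45 and 131.1 CPM in double-positive libraries, which overlapped. In entpd5a+ libraries it stood at 5.427, 5.654 and 8.652 CPM, below every other library. It fell by 3.82 ± 0.53 from col9a2+ to entpd5a+ cells (14.2-fold, adjusted p = 0.00463) and fell by 3.74 ± 0.53 from double-positive to entpd5a+ cells (13.4-fold, adjusted p = 0.00512), and both calls were kept without each library in turn. Double-positive and col9a2+ cells differed by -0.08 ± 0.47 (adjusted p = 0.974).

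The COLGALT1 pair was not called in any comparison. COLGALT1 (ENSDARG00000058270) ranged from 11.11 to 43.66 CPM with its highest mean in entpd5a+ cells, 29.2 ± 13.8 CPM against 21.1 ± 7.16 in col9a2+ and 12.8 ± 1.5 in double-positive cells (SD, n = 3). COLGALT1 (ENSDARG00000073974) ranged from 2.505 to 17.46 CPM, with means of 9.75 to 10.7 CPM in the 3 populations.

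**Figure D2:**
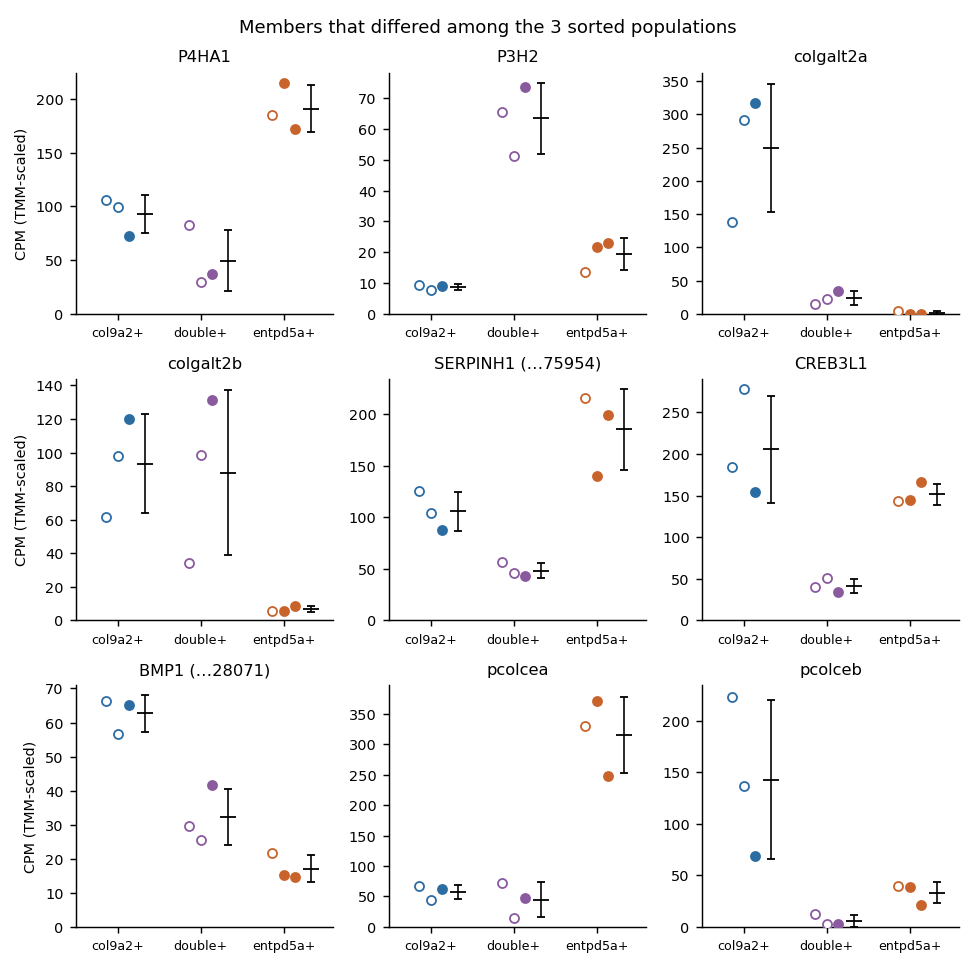
CPM (vertical axis, linear, from 0) of the 9 genes that differed among populations, 1 point per library; filled points are the 4 deeper libraries and open points the 5 shallower ones, and the bar beside each group is the mean ± SD of 3 libraries. In colgalt2b, pcolcea and p4ha1b (P4HA1) all entpd5a+ libraries lie outside the range of the other 6, while p3h2 is highest and creb3l1 lowest in all double-positive libraries.

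Among the 13 chaperone and control genes, 2 passed as higher in entpd5a+ than in double-positive cells and 1 of them passed as lower in double-positive than in col9a2+ cells. Of the 13, 9 (69.2%) had their highest mean in entpd5a+ cells, against 36.3% of all genes. Between entpd5a+ and double-positive cells 11 of 13 log2 differences were positive, with a median of 0.78, where 10047 of all 19039 genes were positive. More of the entpd5a+ libraries were deeper. Among shallower libraries alone 8 of 13 were positive, and among deeper ones 10 were. Negative among the shallower libraries were hspa5 (-0.88), pdia4 (-0.37), pdia3 (-0.21), calr (-0.14) and hsp90b1 (-0.09). SERPINH1 (ENSDARG00000075954) stood at 216.4, 140.6 and 199.2 CPM in entpd5a+ libraries, at 125.2, 104.1 and 88.13 CPM in col9a2+ libraries and at 56.46, 45.61 and 43.17 CPM in double-positive libraries. The populations did not overlap. Entpd5a+ cells exceeded double-positive cells by 1.94 ± 0.31 (3.83-fold, adjusted p = 0.00727). The smaller differences on either side of col9a2+ cells did not pass (0.81 ± 0.30 for entpd5a+, adjusted p = 0.184, and -1.13 ± 0.30 for double-positive cells, adjusted p = 0.0756).

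The other HSP47 gene, SERPINH1 (ENSDARG00000019949), was called between depth groups but between no populations. It stood at 636.2, 396.7 and 1418 CPM in col9a2+, at 313.9, 157.7 and 989.8 CPM in double-positive and at 881.2, 4028 and 7141 CPM in entpd5a+ libraries. Within each population the deeper libraries were the high ones, and within each depth group the entpd5a+ libraries were highest. The difference of entpd5a+ from double-positive cells, 3.04 ± 0.93, did not pass (adjusted p = 0.0914). With a term for the depth groups it was 2.33 and passed (adjusted p = 0.0159), and without entpd5a+ library 1 it was 3.52 (adjusted p = 0.0444). HSP47 is known in vertebrates as a heat shock protein, and the heat shock list was high in the same deeper libraries; its part in these levels was not tested.

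The transcription factor gene creb3l1 encodes OASIS, a membrane-bound factor of the endoplasmic reticulum that promotes collagen I transcription in mouse osteoblasts. It stood at 39.86, 50.47 and 34.38 CPM in double-positive libraries, below all col9a2+ libraries (184.1, 277.7 and 154.6 CPM) and all entpd5a+ libraries (143.2, 145.1 and 166.4 CPM). From col9a2+ to double-positive cells it fell by 2.31 ± 0.33 (4.94-fold, adjusted p = 0.00697), and entpd5a+ cells exceeded double-positive cells by 1.87 ± 0.33 (3.65-fold, adjusted p = 0.011). Both calls were kept without each library in turn. The single-positive populations overlapped, with a difference of -0.44 ± 0.32 (adjusted p = 0.585). The related factor gene creb3l2, which in zebrafish is needed for secretion of cartilage matrix, ranged from 80.13 to 239.1 CPM and was not called.

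No general folding factor was called between populations. The gene hspa5, which encodes the chaperone BiP, stood at 1358, 772.5 and 2765 CPM in col9a2+, at 1420, 1050 and 4158 CPM in double-positive and at 661.5, 3274 and 9167 CPM in entpd5a+ libraries. The populations overlapped, and the deeper libraries were the high ones in all 3. The genes hsp90b1 (284.1 to 1309 CPM), pdia3 (286.9 to 671.3), pdia4 (108.9 to 251.8), calr (131.5 to 196.1) and canx (245.3 to 613.9), which encode GRP94, disulfide isomerases and lectin chaperones, were not called either. Neither were the FKBP10 genes, which encode the isomerase FKBP65 (2.371 to 253.1 CPM over both), nor xbp1 (589.2 to 2835 CPM), a transcription factor of the unfolded protein response.

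None of the 11 export genes was called by edgeR's quasi-likelihood test between any pair of populations. Of all genes, 5.02% (entpd5a+ against col9a2+), 3.54% (double-positive against col9a2+) and 6.51% (entpd5a+ against double-positive) were called. For 11 genes, 0 calls lie close to those shares. In the same order, unadjusted p was under 0.05 for 0, 0 and 1 export genes, and for 16.8%, 16.2% and 20.7% of all genes. DESeq2 called 0, 0 and 1 export genes, and the share of all genes it called is not given here. All 11 log2 differences between double-positive and col9a2+ cells were negative, from -0.85 to -0.05 (1 was positive among shallower libraries alone), and no export gene had its highest mean in double-positive cells. In that comparison 9623 of all 19039 genes were positive. Of 30 other genes of export to the Golgi 11 were positive, with a median of -0.15 against -0.52 for the 11 export genes. The gene sar1b encodes the GTPase that starts COPII coat assembly. It stood at 330.2, 249.9 and 224.1 CPM in col9a2+, at 279.8, 241.4 and 193.6 CPM in double-positive and at 339.8, 321.8 and 314.7 CPM in entpd5a+ libraries, with overlap between col9a2+ libraries and both others.

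The receptor gene kdelr2a, whose product returns escaped proteins to the endoplasmic reticulum, stood at 353.5, 377.6 and 144.9 CPM in col9a2+, at 253.4, 273.3 and 128.6 CPM in double-positive and at 392.1, 152.9 and 237.1 CPM in entpd5a+ libraries. The low values were those of deeper libraries in each population. The gene sec24d encodes a cargo-binding COPII subunit whose loss in zebrafish disturbs cartilage matrix secretion. It ranged from 16.29 to 56.26 CPM, and entpd5a+ cells exceeded double-positive cells by 1.09 ± 0.33 (adjusted p = 0.0892), which passed with a term for the depth groups and in DESeq2. The other coat genes sec23a (22.93 to 94.82 CPM), sec23b (39.73 to 195.8), sec24c (20.22 to 39.04), sec13 (88.07 to 205.9) and sec31a (21.39 to 85.49), and mia3 (30.6 to 78.67 CPM), which encodes TANGO1, did not pass. Nor did either kdelr3 identifier (42.3 to 183.2 and 11.8 to 30.9 CPM).

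In propeptide cutting, the genes of a pair were ordered differently across populations. The gene pcolcea encodes a procollagen C-proteinase enhancer, a protein that speeds cutting by BMP1. It stood at 329.4, 370.6 and 247.2 CPM in entpd5a+ libraries, above all col9a2+ (67.09, 44.36 and 61.39 CPM) and double-positive libraries (71.36, 14.57 and 47.43 CPM), which overlapped each other. Entpd5a+ cells exceeded col9a2+ cells by 2.45 ± 0.53 (5.48-fold, adjusted p = 0.0277) and double-positive cells by 2.83 ± 0.53 (7.10-fold, adjusted p = 0.0141). The first call was lost without any 1 of the col9a2+ libraries and without entpd5a+ library 2 (adjusted p = 0.0835 to 0.138), with differences of 2.30 to 2.58.

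The paralog pcolceb was lowest in double-positive cells. It stood at 223.4, 136.6 and 69.27 CPM in col9a2+ libraries, at 39.95, 38.33 and 21.19 CPM in entpd5a+ libraries and at 12.46, 2.654 and 2.226 CPM in double-positive libraries. The populations did not overlap. From col9a2+ to double-positive cells it fell by 4.63 ± 0.77 (24.8-fold, adjusted p = 0.0118). Without double-positive library 1, the one with the highest sum of endothelial markers, it fell by 5.87. That library also had the highest osteoblast sum of its group, 962.3 CPM, and the part of such cells was not tested. The differences of entpd5a+ cells, -2.11 ± 0.69 from col9a2+ and 2.52 ± 0.70 from double-positive cells, did not pass (adjusted p = 0.133 and 0.0665).

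BMP1 genes encode the C-proteinase itself. BMP1 (ENSDARG00000028071) stood at 66.42, 56.55 and 65.27 CPM in col9a2+, at 29.71, 25.52 and 41.52 CPM in double-positive and at 21.55, 15.17 and 14.54 CPM in entpd5a+ libraries. The 3 populations did not overlap and descended in that order. It fell by 1.88 ± 0.31 from col9a2+ to entpd5a+ cells (3.67-fold, adjusted p = 0.00867). The smaller falls on either side of double-positive cells, -0.96 ± 0.30 (adjusted p = 0.13) and -0.92 ± 0.30 (adjusted p = 0.115), did not pass.

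BMP1 (ENSDARG00000028053) stood at 6.295, 11.15 and 25.5 CPM in col9a2+, at 5.839, 3.538 and 2.285 CPM in double-positive and at 13.33, 21.02 and 15.33 CPM in entpd5a+ libraries. Its lowest libraries were the double-positive ones, and its excess in entpd5a+ over double-positive cells, 2.09 ± 0.57, did not pass (adjusted p = 0.061). The N-proteinase gene adamts2b was low everywhere (0.2341 to 33.36 CPM), with its highest mean in entpd5a+ cells, 17.9 ± 13.4 CPM (SD, n = 3). Its difference from double-positive cells, 3.62 ± 0.97, did not pass (adjusted p = 0.0567) and was 2.81 without entpd5a+ library 2. The related gene adamts3 ranged from 11.6 to 48.71 CPM and was not called.

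Markers of tendon and fibroblasts moved with the genes high in entpd5a+ cells. Of 6 such markers, 4 were called higher in entpd5a+ than in col9a2+ cells, and 4 were called higher than in double-positive cells. Without COL1A2, itself a collagen gene, the list summed to 1363, 1592 and 902.2 CPM in entpd5a+ libraries, to 269.1, 161 and 405.9 CPM in col9a2+ and to 205.3, 63.38 and 197.5 CPM in double-positive libraries. No marker of the list was at 0 in any library. The osteoblast list given above was also highest in entpd5a+ libraries. The part of cells of either type in the levels of pcolcea, p4ha1b and SERPINH1 (ENSDARG00000075954) was not tested. A list of 4 epidermis markers summed to 5766, 7037 and 10450 CPM in col9a2+ libraries. It summed to 8327, 11590 and 11570 CPM in double-positive and to 2511, 4852 and 8078 CPM in entpd5a+ libraries. The 4 markers were ordered differently. Means in col9a2+, double-positive and entpd5a+ cells were 2543, 6824 and 2822 CPM for krt4 and 4821, 3642 and 2023 for krt5. For cldni they were 54.68, 15.35 and 200.3 CPM, and for epcam 331.2, 13.54 and 101.9. The part of epidermis cells was not tested. Of 3 cartilage markers, 1 was COL9A2. MATN1 stood at 2179, 1599 and 781.5 CPM in col9a2+, 26.04, 1.821 and 2.934 in double-positive and 247.1, 13.33 and 11.43 in entpd5a+ libraries. The third, acana, had means of 101.7 CPM in col9a2+, 135.3 in double-positive and 12.36 in entpd5a+ cells. The part of cartilage cells in the levels of genes high in col9a2+ cells, such as pcolceb, was not tested either.

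The patterns of paired genes can be set side by side as the log2 ratio of their CPM in each library. Gene lengths were not used, so a ratio's own level cannot be read and only its change between populations can. The ratio of colgalt2a to colgalt2b was 1.38 ± 0.20 in col9a2+, -1.75 ± 0.46 in double-positive and -3.81 ± 3.89 in entpd5a+ libraries (mean ± SD, n = 3). It was lower in all double-positive than in all col9a2+ libraries. In entpd5a+ libraries, where colgalt2a had 199, 51 and 0 counts, it was -0.27, -3.19 and -7.98, overlapping double-positive libraries. Without entpd5a+ library 3 the entpd5a+ mean was -1.73, close to that of double-positive cells.

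The ratio of pcolcea to pcolceb was -1.74, -1.62 and -0.17 in col9a2+ libraries, 2.51, 2.44 and 4.39 in double-positive and 3.04, 3.27 and 3.54 in entpd5a+ libraries. It was higher in all double-positive and entpd5a+ libraries than in any col9a2+ library. The ratio of BMP1 (ENSDARG00000028071) to BMP1 (ENSDARG00000028053) was 3.39, 2.34 and 1.35 in col9a2+, 2.34, 2.84 and 4.16 in double-positive and 0.69, -0.47 and -0.08 in entpd5a+ libraries, lowest in all entpd5a+ libraries. For FKBP10 the ratio (ENSDARG00000045129 to ENSDARG00000099183) was 4.97 ± 0.55 in col9a2+ and 3.48 ± 0.14 in entpd5a+ libraries, without overlap, and 4.46 ± 1.19 in double-positive libraries. The ratios of the P4HA1, COLGALT1, SERPINH1 and KDELR3 pairs overlapped in every comparison.

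**Figure D3:**
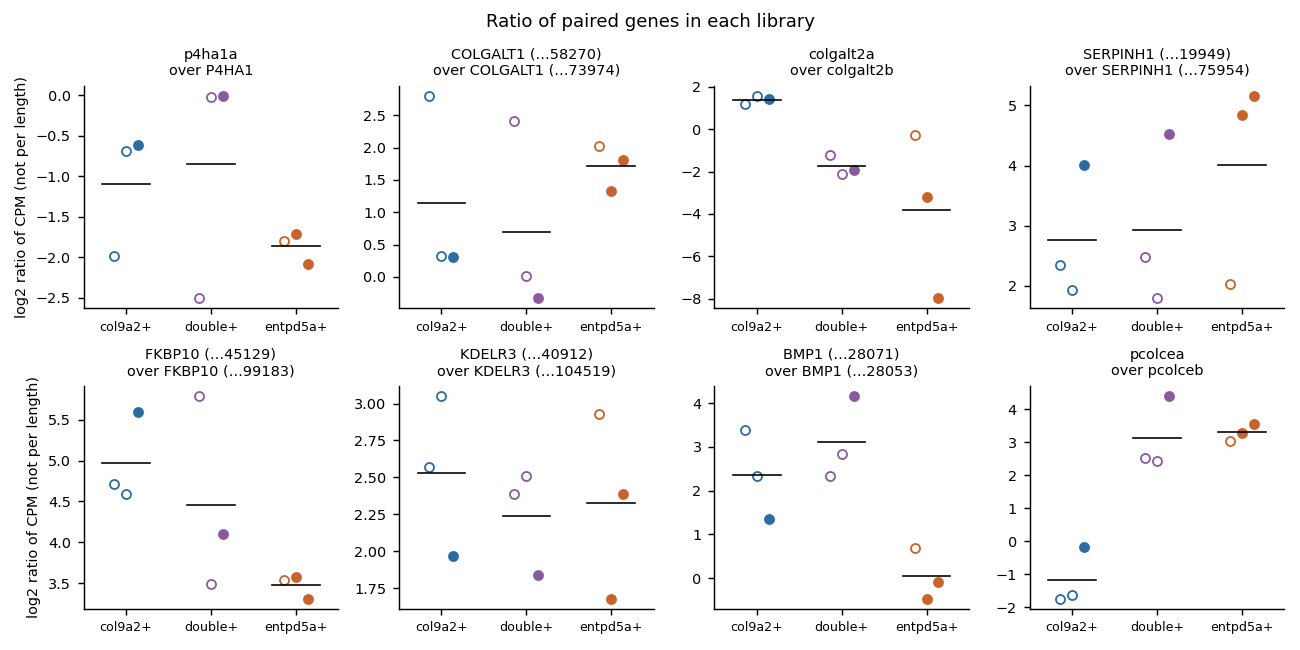
Log2 ratio of CPM (vertical axis, not corrected for gene length) for 8 gene pairs, 1 point per library, filled for the 4 deeper libraries; lines are means of 3 libraries. Brackets give the last digits of the identifier. The ratio of the BMP1 pair is lowest in all entpd5a+ libraries, that of colgalt2a to colgalt2b is lower in double-positive and entpd5a+ than in col9a2+ libraries, and that of pcolcea to pcolceb has a mean of -1.18 in col9a2+, 3.12 in double-positive and 3.29 in entpd5a+ cells.

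A further 9 of the 47 genes differed between the 4 deeper and the 5 shallower libraries, in a fit that also held the populations. This share of 19.1% stands against 9.74% of all genes tested; 3 genes were higher (3.52% of all genes) and 6 lower (6.21% of all genes) in the deeper libraries. The comparison was added with earlier results of these data known, and depth, heat shock level and, for the most part, replicate number cannot be told apart in it: the number 1 libraries were all shallower and the number 3 libraries all deeper. The higher genes were hspa5 by 2.09 ± 0.48 (adjusted p = 0.0297), SERPINH1 (ENSDARG00000019949) by 2.06 ± 0.37 (adjusted p = 0.011) and canx by 0.75 ± 0.19 (adjusted p = 0.044).

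The gene p4hb, chosen for mention after its values were seen, showed the largest of the 47 differences between depth groups. It encodes protein disulfide isomerase, which is also the beta subunit of prolyl 4-hydroxylase. It stood at 10.87 to 17.57 CPM in the 4 deeper libraries and at 51.01 to 127.5 CPM in the 5 shallower ones, a fall by 2.59 ± 0.22 (6.02-fold, adjusted p = 8.05e-04), kept without each library in turn. Its population means of 90.7 ± 63.3 CPM in col9a2+, 56.2 ± 39.8 in double-positive and 25.3 ± 22.3 in entpd5a+ cells (SD, n = 3) were not called different. Of the 3 entpd5a+ libraries 2 were deeper, against 1 of 3 in each other population, so depth and population are partly confounded in these means.

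Also lower in the deeper libraries were ppib (fell by 1.02 ± 0.18, adjusted p = 0.0111), crtap (fell by 0.70 ± 0.16, adjusted p = 0.0293), sec23a (fell by 1.22 ± 0.19, adjusted p = 0.00622), kdelr2a (fell by 1.12 ± 0.20, adjusted p = 0.0106) and KDELR3 (ENSDARG00000040912, fell by 0.97 ± 0.18, adjusted p = 0.0138). Depth groups did not overlap for 10 of the 47 genes, 5 in each direction (13.3% of all genes): p4hb, crtap, ppib, sec23a and kdelr2a were lower, and SERPINH1 (ENSDARG00000019949), hspa5, hsp90b1, canx and xbp1 higher. All 5 measured heat shock genes were called higher in the deeper libraries, as were the stress response genes ppp1r15a by 3.32 ± 0.25 (adjusted p = 7.79e-04) and ddit3 by 2.97 ± 0.38 (adjusted p = 0.00303). The number of the 47 genes called depended on single libraries: it was 2 without col9a2+ library 3, 1 without double-positive library 3 and 2 without entpd5a+ library 1. The share of all genes called in these fits is not given here, so these counts cannot be read as a result about the 47 genes. The calls of canx and crtap were lost without any 1 of 8 libraries, all but entpd5a+ library 3, and with no count filter. Each of the other calls but that of p4hb was lost without double-positive library 3.

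**Figure D4:**
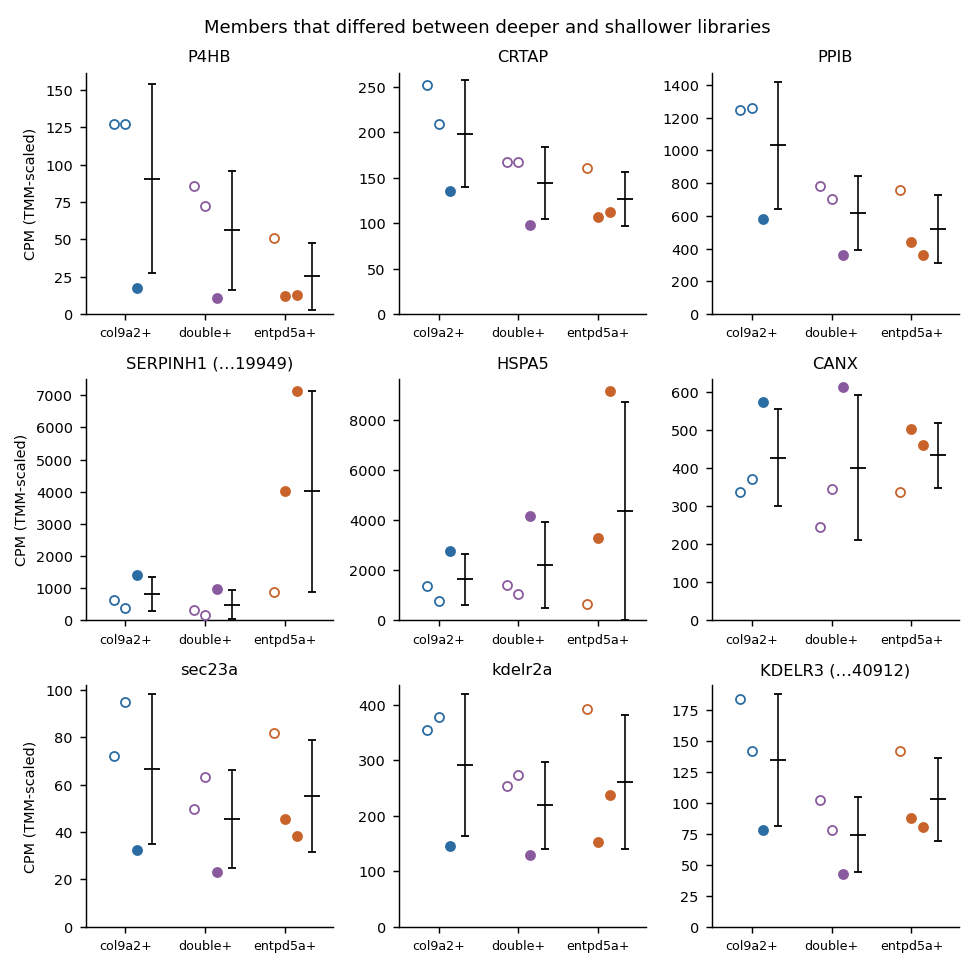
CPM (vertical axis, linear, from 0) of the 9 genes that differed between depth groups, 1 point per library; filled points are the 4 deeper and open points the 5 shallower libraries, and bars are the mean ± SD of the 3 libraries of a population. In P4HB every deeper library lies at or below 17.57 CPM, and in HSPA5 every deeper library lies at or above 2765 CPM.

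The 3 libraries of the populations compared did not overlap in any of the 13 called differences, so their sign within a depth group is fixed. Only the sizes are described here. There is a single shallower entpd5a+ library, a single deeper col9a2+ library and a single deeper double-positive library. The deeper differences between double-positive and col9a2+ cells thus compare 1 library with 1. For p3h2, the difference of double-positive from col9a2+ cells was 2.77 among shallower and 2.99 among deeper libraries, for creb3l1 -2.33 and -2.17, and for pcolceb -4.91 and -4.94. For pcolcea, entpd5a+ exceeded col9a2+ cells by 2.59 and 2.30, and for SERPINH1 (ENSDARG00000075954) entpd5a+ exceeded double-positive cells by 2.09 and 1.95.

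Other genes of the same pathway, from lists kept apart from the 48, are given beside the share of all genes. Of 25 other folding genes of the endoplasmic reticulum, 19 genes of the unfolded protein response and 30 other genes of export to the Golgi, none was called by edgeR in any of the 3 comparisons, where 5.02%, 3.54% and 6.51% of all genes were. In the same order, unadjusted p was under 0.05 for 3, 4 and 3 folding genes, for 2, 0 and 2 unfolded protein response genes and for 3, 3 and 4 export genes, and for 16.8%, 16.2% and 20.7% of all genes. DESeq2 called 2, 2 and 2 folding genes, 0, 0 and 0 unfolded protein response genes and 1, 2 and 1 export genes. The share of all genes that DESeq2 called is not given here, and the shares above are those of edgeR. The edgeR test over all 3 populations called 1 of the 25 folding genes and none of the other 2 lists, against 9.41% of all genes. Between depth groups, where 9.74% of all genes were called, 4 of the 25 folding genes were lower in the deeper libraries, all of them FKBP isomerase genes, and FKBP7 fell by 1.32 ± 0.20 (adjusted p = 0.00566). In the same comparison 3 of 19 unfolded protein response genes were higher, and of 30 export genes 3 were higher and 6 lower.

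Of 12 other proteinase genes tested, FURIN (ENSDARG00000070971), which encodes a convertase that activates BMP1 and other proproteins, differed in 2 comparisons. It stood at 8.158, 6.929 and 5.927 CPM in col9a2+ libraries, below all double-positive (27.14, 14.99 and 28.99 CPM) and entpd5a+ libraries (19.98, 34.64 and 25 CPM). It was higher by 1.76 ± 0.37 in double-positive (adjusted p = 0.0317) and by 1.92 ± 0.37 in entpd5a+ cells (adjusted p = 0.0178). Both calls were lost without any 1 of the col9a2+ libraries, the first also without double-positive library 1 or 3 and the second without entpd5a+ library 2, with differences of 1.59 to 2.04. The other FURIN gene (ENSDARG00000062909) was not called in any of the 3 comparisons. It stood at 52.89, 77.34 and 39.83 CPM in col9a2+ and at 54.47, 66.73 and 49.51 CPM in double-positive libraries. In entpd5a+ libraries it stood at 81.28, 84.08 and 72.55 CPM. ADAMTS14, an N-proteinase gene, fell by 3.11 ± 0.73 from double-positive to entpd5a+ cells (adjusted p = 0.0346), from 23.04, 61.76 and 121 CPM to 5.9, 10.88 and 7.088 CPM. It fell by 2.41 without double-positive library 3, and the call was lost there and without col9a2+ library 2, double-positive library 2 or any 1 entpd5a+ library (adjusted p = 0.0581 to 0.108).

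The collagen genes that such enzymes serve were also counted, against the same shares of all genes (5.02%, 3.54% and 6.51% called). Of 23 collagen genes tested, among them COL9A2, whose reporter defined the sort, 6 were called higher and 7 lower in entpd5a+ than in col9a2+ cells, 1 higher and 4 lower in double-positive than in col9a2+ cells, and, of entpd5a+ against double-positive cells, 5 higher and 1 lower. In entpd5a+ against col9a2+ cells col5a2b was higher by 5.61 ± 0.73 (adjusted p = 0.004). COL9A2, 1 of the 7 lower genes, fell by 5.66 ± 0.89 (adjusted p = 0.00729) and fell by 7.12 without entpd5a+ library 1. The sort on its reporter set the direction for COL9A2, so its p-value lends no support. In double-positive against col9a2+ cells col8a1a was higher by 5.34 ± 0.79 (adjusted p = 0.00762) and COL2A1 (ENSDARG00000011407) fell by 4.21 ± 0.71 (adjusted p = 0.0126). These differences were 6.08 without col9a2+ library 2 and -4.87 without double-positive library 3.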

How the data were processed

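Total RNA of 9 sorted populations was sequenced after Clontech ultra-low-input library preparation, per the labels' protocols. The submitters' processing notes name HISAT2, HTSeq and the build GRCz10; versions, annotation release and strand setting are not given in the sources used here. The authors deposited raw counts per Ensembl gene, 1 table per library. The tables hold no rows for unassigned reads. Symbols came from a name table covering 26433 of 32266 identifiers (81.92%).

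Counts were filtered with filterByExpr, scaled by TMM and fitted in all 9 libraries with 1 coefficient per population by edgeR 4.0.16 (glmQLFit robust, glmQLFTest; R 4.3.3), two-sided, with Benjamini-Hochberg adjustment over 19039 genes and a threshold of 0.05. SE is the difference over the square root of F. CPM are TMM-scaled; log2 ratios used a prior count of 2. The code was tested on simulated data. Alternatives were other scalings and filters, a replicate block, a depth term, DESeq2 1.42.0, 6 libraries and each library left out; the 5 shallower libraries alone, the depth comparison, the pair ratios and alternatives for listed genes were added later.

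Values per library are given for called genes, the 2 with the highest mean CPM in each step and the partners of called paralogs. The members, lists and this rule were chosen with earlier results of these data known. Paralog counts are uncertain where reads fit both copies, and overlapping or antisense genes where strand was not used. The totals of counts limit the precision; no sequence and no gene length was used.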

Additional observations from a re-analysis of the deposited data

How the results depend on the processing

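Of the 13 called differences between populations, 13 were kept with RLE and upper-quartile factors, a mean of at least 10 CPM, the replicate block, the depth term and DESeq2; 12 were kept with no count filter and with only the 6 libraries compared, and 10 without each library in turn. In the 5 shallower libraries alone, chosen after seeing the data, with a lone entpd5a+ library assumed to vary like the others, 4 were kept.

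The number of members called between entpd5a+ and col9a2+ cells was 9 in DESeq2, 1 in the 5 shallower libraries and 2 to 5 with a library left out. Between double-positive and col9a2+ cells it was 5 with a mean of at least 10 CPM, 8 with the depth term and 10 in DESeq2. Between entpd5a+ and double-positive cells it was 12 with the depth term, 14 in DESeq2 and 1 in the 5 shallower libraries. Over the 3 populations it was 15 with the depth term, 17 in DESeq2 and 5 in the 5 shallower libraries. Between depth groups it was 16 in DESeq2 and 1 to 11 with a library left out. For these settings, and for the replicate block below, the share of all genes called is not given here. A higher or lower count therefore cannot be read as a result about the members. The causes were not tested.

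Whether the replicate numbers pair the libraries is not given by the labels, and not every same-numbered pair correlated above 0.1. Deviations correlated at 0.13 to 0.21 (number 1), -0.11 to 0.22 (number 2) and 0.15 to 0.33 (number 3). In 11 of 18 cases a library correlated best with its own number. The number 1 libraries were all shallower and the number 3 libraries all deeper, so this count cannot tell pairing from depth. With the replicate block the counts were 5, 5 and 9 in the 3 comparisons in the order above, 11 over the populations and 0 between depth groups, where xbp1 (-0.43) and pcolceb (0.74) changed sign; the block and depth largely coincide. Beside the 13, the block gave calls for pcolceb (-1.96 for entpd5a+ against col9a2+, 2.89 against double-positive cells), p3h3 (-1.46) and SERPINH1 (ENSDARG00000075954, -1.13) for double-positive against col9a2+ cells, and SERPINH1 (ENSDARG00000019949, 3.15) and sec24d (1.13) for entpd5a+ against double-positive cells. It also ended the depth calls of ppp1r15a (2.6), ddit3 (1.37) and FKBP7 (-1.02). Leaving out a library moved the colgalt2 ratio in entpd5a+ cells between -5.58 and -1.73, and took the COLGALT1 ratio in double-positive cells from 0.70 to -0.16 without library 1.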
